A study of Mus musculus with 11 samples.

Results

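Astrocytes of the brainstem (BS) were compared with astrocytes of 3 telencephalic regions, the olfactory bulb (OB), the hippocampus (HC) and the cortex (CX), by RNA-Seq of sorted cells. The labels alone set the comparison, as 3 BS samples against 3 OB, 3 HC and 2 CX samples pooled into 1 forebrain group of 8, of 11 samples in all. Every sample came from 16-week-old Aldh1l1-eGFP mice, in which a bacterial artificial chromosome carrying the Aldh1l1 promoter drives green fluorescent protein, and the GFP-positive cells were collected by FACS. The reporter shows where this promoter is active and not that a cell is an astrocyte by any other measure. All animals carried the transgene on a C57BL/6 background and were of both sexes, with no treatment or further allele named in the labels. Neither how many animals stand behind a sample nor which samples shared an animal was given in the sources used here, so that the p-values measure the spread between these samples, which may be partly technical.

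During development, the neural tube is divided along its length by transcription factors that remain active in many cells as a record of position. Forebrain progenitors use factors such as LHX2 and the EMX proteins, whereas the hindbrain uses HOX proteins, with Hox genes of low paralog number reaching the most anterior segments. Astrocytes everywhere clear glutamate, convert it to glutamine, buffer potassium and supply serine and lipids, and brainstem circuits differ from those of the telencephalon in their use of glycine beside GABA as an inhibitory transmitter.

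A normalized value is the read count of a gene divided by 1 size factor per sample, and is not corrected for transcript length. The BS libraries were among the shallower ones, with 2830746 to 5552215 reads on genes against 4306813 to 14151670 in the forebrain, so that 3 reads, taken as the detection floor, corresponded to a value of 3.15 to 6.31 in the BS and of 1.10 to 4.60 in the forebrain. Floors and read intervals cover counting error only. Ribosomal RNA precursor reads (Rn45s) made up 18.0% to 25.6% of reads in the BS, 19.0% to 20.7% in CX libraries but 0.966% to 2.93% in those of the OB and HC. This difference in library makeup thus ran along the comparison in part, with the CX on the side of the BS, and its part in the results was not tested. Values of the BS are given throughout in the order BS_1, BS_2 and BS_3.

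Of 24421 entries, 13875 had enough reads to be tested, and 737 of these (5.31%) differed between the BS and the pooled forebrain, with an adjusted p under 0.05 and a fold change over 1.5. Of the genes tested, 272 (1.96%) were higher in the BS and 465 (3.35%) were lower. Differences are given as log2(value + 1) in the BS minus that in the forebrain, with limma's standard error and adjusted p, and for genes with few reads in 1 group the size of the difference depends on the added 1. The median difference over all genes tested was 0.0152. In 237 of the higher and 384 of the lower genes, the 3 BS samples lay beyond all 8 forebrain samples, a separation seen above the forebrain in 3.7% and below it in 4.19% of all genes tested. Set against each region separately, with the same BS samples in each, the BS passed both thresholds against the OB, the HC and the CX alike in 85 genes that were higher (0.613%) and 236 that were lower (1.7%). Leaving out BS_1 or BS_3 lowered the number of genes called to 314 and 303, whereas 825 were called without BS_2. Leaving out HC_1 gave 1075 and raised the number of higher genes to 465.

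**Figure D1:**
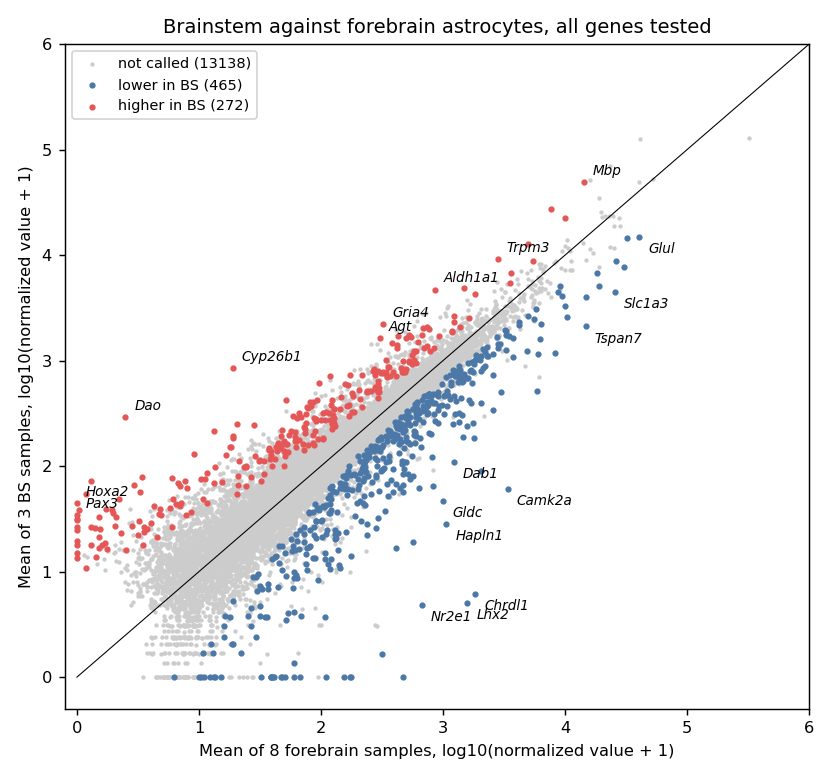
Mean normalized value of each gene tested in the 8 forebrain samples (horizontal) and the 3 BS samples (vertical), both as log10(value + 1), with the diagonal marking equal means. The 272 genes called higher in the BS (red) include Dao, Cyp26b1, Hoxa2 and Trpm3, and the 465 called lower (blue) include Lhx2, Gldc and Slc1a3, the other genes tested being grey.

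The sorted cells were checked for their labelled identity. Of 30 astrocyte markers, 1 was higher (Slc7a10, 3.33% against 1.96% of all genes). In the same list 3 were lower (Slc1a3, Glul and Cpe, 10% against 3.35%), and 7 were lower without HC_1 or without BS_2. The list's median log2 difference was -0.30, and 13 markers had an unadjusted p under 0.05 in limma, 3 of them higher. Markers that did not pass included Aldh1l1 itself, the folate enzyme whose promoter drives the reporter, at 623, 1256 and 657 in the BS and 542 to 1317 (median 952) in the forebrain (log2 difference -0.19, adjusted p = 0.7123). Aqp4, the water channel of astrocyte endfeet, stood at 9275, 20767 and 11980.3 against 5077 to 13521 (log2 difference 0.41, adjusted p = 0.4736). Gfap, the intermediate filament of astrocytes, stood at 1159.6, 1779 and 1427 against 889 to 4028 (log2 difference -0.89, adjusted p = 0.2389). Markers of astrocytes were thus present at high values in every BS sample. Their summed value was nevertheless lower in BS_1 (232844) and BS_3 (353022) than in any forebrain sample (444059 to 980819), while BS_2 (583385) lay within that range. In bulk samples, fewer cells of a type and less RNA per cell cannot be told apart.

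Markers of other cells moved with the region as well. The 20 choroid plexus genes summed to 378422, 79089 and 187312 in the BS and to 109300 to 226707 in the HC, against 2593 to 8771 in the OB and CX. With the HC on the same side, 0 of 20 passed the test against the pooled forebrain in limma, edgeR or DESeq2, with 14 at an unadjusted p under 0.05 in limma, although 19 passed without the HC samples. Summed ependymal markers reached 389 to 1494 in the BS and 104 to 615 in the forebrain. Markers of mature oligodendrocytes, the myelinating cells of the brain, were the clearest of these groups, at 54536 to 93643 in every BS sample against 10257 to 41913, mostly through Mbp. Of 15 tested, 2 were called higher (13.3% against 1.96% of all genes), among them Mbp, which encodes a major myelin protein. The count was 8 without the HC samples, 4 without HC_1, 5 without HC_2, 1 without OB_1, OB_2, CX_2, BS_1 or BS_2, and 0 without BS_3. Col1a2, a collagen of fibroblasts and vascular cells, was higher too, at 644, 256 and 299 against 51.5 to 146 (log2 difference 2.25, adjusted p = 0.0014).

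Neuronal markers moved in both directions. The 20 neuronal markers summed to 4319 to 5364 in the BS and 3955 to 9917 in the forebrain. Of these, 5 were called higher (25% against 1.96% of all genes) and 3 lower (15% against 3.35%). The number higher was 2 without BS_1 or BS_3 and 3 without OB_2, OB_3 or HC_2. The neurofilament genes, whose products fill large myelinated axons, were among the higher ones, with Nefm at 182, 126 and 143 in the BS against 5.14 to 38.9 (log2 difference 3.43, adjusted p = 0.005371) and Nefh at 339.6, 202 and 210.5 in the BS and 3.16 to 42.5 (median 17.7) in the forebrain (log2 difference 3.85 ± 0.57 (SE), adjusted p = 0.001266). Camk2a, the kinase of forebrain excitatory synapses, fell from 912 to 5656 (median 3709) to 55.7, 14.02 and 109 (log2 difference -5.88 ± 0.67 (SE), adjusted p = 0.0001892), and Slc17a7, the vesicular glutamate transporter of cortical neurons, from 56.5 to 219 (median 139.7) to 21.0, 14.02 and 10.5 (adjusted p = 0.0008344). Ddn, which encodes the postsynaptic protein dendrin, had no BS read and stood at 47.4 to 307 in the forebrain, where its mean was at least 33.6-fold above the BS floor, the mean value of 3 reads in the BS libraries. Markers of brainstem neurons summed to 349 to 415 against 30.7 to 107, with Nefh, also one of the 20 neuronal markers, making up most of each BS sum. Of 6 tested, 2 were called (33.3% against 1.96% of all genes), Nefh and Slc6a5. Slc6a5 had few forebrain reads and passed the filter through the BS alone, so that this count is a description. Slc6a2, the noradrenaline transporter, had no read in any sample and Chat, which marks cholinergic neurons, had 2 in all. Genes of cerebellar neurons were uneven among the BS samples: Cbln3, a granule cell gene, stood at 4.21, 16.0 and 194, and Gabra6, the GABA receptor subunit of granule cells, at 10.5, 18.0 and 61.0, highest in BS_3 for both. Of the 8 tested cerebellar genes, 5 were called (62.5% against 1.96% of all genes). The count was 1 without BS_2 or without BS_3, and 3 without OB_2, OB_3, HC_3, CX_1, CX_2 or BS_1. Gabra6 had no forebrain read and passed the filter through the BS alone, so that this count is a description. The 11 cerebellar genes listed summed to 152, 290 and 549 in the BS and to 52.1 to 170 in the OB and HC. Their sums were highest in the CX, at 989 and 926. The part of these neurons in the results was not tested.

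**Figure D2:**
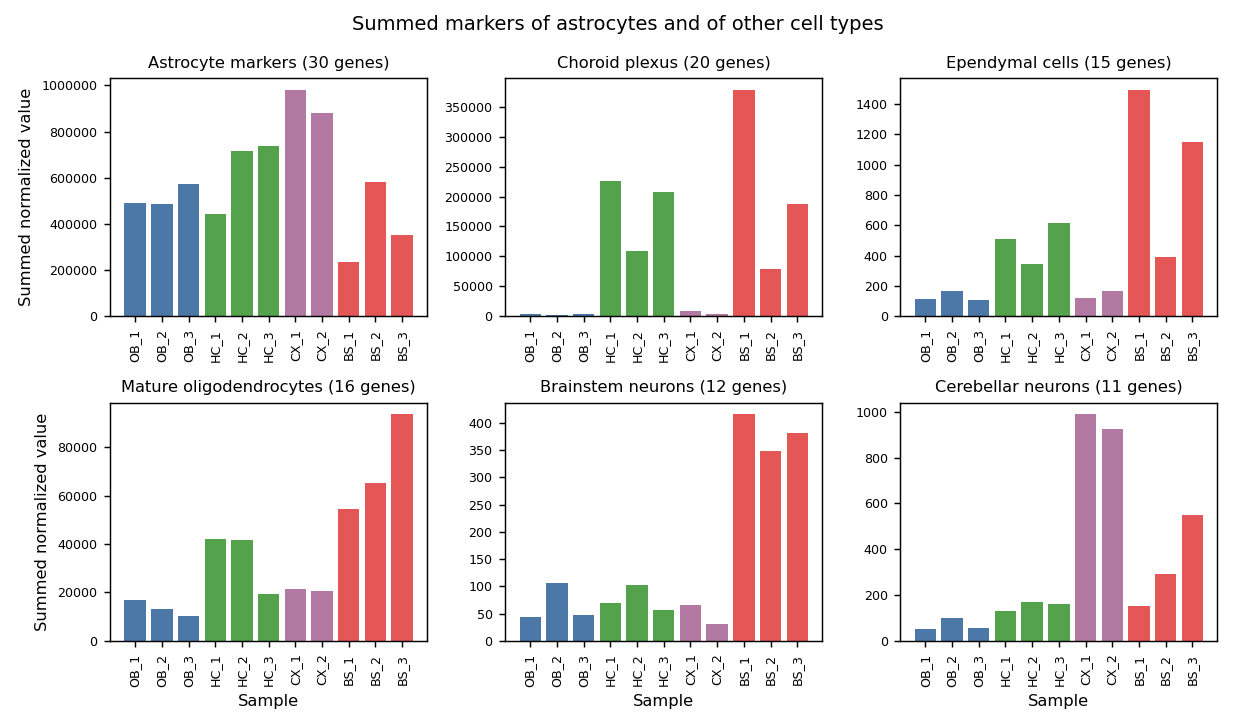
Summed normalized value (vertical, linear scale) of the markers of each cell type in the 11 samples (horizontal), coloured by region (OB blue, HC green, CX purple, BS red), with the number of genes in each title. Oligodendrocyte and brainstem neuron markers are higher in the 3 BS samples than in all others, choroid plexus markers are high in the HC and BS, and the sum of astrocyte markers is lowest in BS_1 and BS_3.

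Patterning factors of the hindbrain were among the genes that marked the BS most sharply. Of the 39 Hox genes, which give cells of the hindbrain and spinal cord their segmental identity, 16 had a read in the BS, whereas in the 8 forebrain samples 1 read of Hoxa7 was the only one. The BS reads came to 388 in 3 samples. All 16 belonged to paralog groups 1 to 7, and none of the 19 genes of paralog groups 8 to 13 had a read in any sample. Hoxa2 (chromosome 6, 52162417 to 52164831), which patterns the anterior hindbrain, was the most even of them, at 39.9, 44.1 and 46.3 in the BS and 0 in all forebrain samples, with a BS mean at least 16.3-fold higher than the mean value of 3 reads in the forebrain libraries (log2 difference 5.47 ± 0.63 (SE), adjusted p = 0.000189). Hoxa5 was at 21.0, 16.0 and 40.0, Hoxb3 at 47.3, 4.01 and 40.0 and Hoxa3 at 6.31, 30.1 and 35.8, each without a forebrain read. These last genes had reads in every BS sample but varied by several fold among them. Hoxb3 was below the floor of 6.01 in BS_2, and Hoxa3 was lowest in BS_1.

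All 6 Hox genes with enough reads to be tested (Hoxa2, Hoxa3, Hoxa5, Hoxb3, Hoxc4 and Hoxd3) were called higher, against 1.96% of all genes. They entered the test through their BS reads alone and therefore had to differ, so that the count is no separate evidence. It was 3 without BS_2 or without BS_3 and 2 without the CX samples, and Hoxa3, Hoxb3, Hoxc4 and Hoxd3 kept their calls in the 21 of 25 settings in which they had enough reads to be tested. Their median log2 difference was 4.38 as fitted, which depends on the added 1, and 3.22 with each gene at its bound. Hotairm1, a long noncoding RNA of the anterior HOXA cluster, was at 31.5, 46.1 and 27.4 in the BS and at 0 in all forebrain samples but CX_2, which had 7.67 (log2 difference 4.75 ± 0.81 (SE), adjusted p = 0.003528, adjusted p = 0.19 in DESeq2).

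Other factors of the hindbrain and the ventral neural tube were higher as well. Of 16 tested among 35 listed, 8 were higher (50% against 1.96% of all genes) and none lower, and the number fell to 3, 4 and 5 without BS_1, BS_2 and BS_3. Members with few forebrain reads passed the filter through the BS alone, so that this count is a description as well. The members tested had a median log2 difference of 3.56, or 3.51 with the gene lacking forebrain reads at its bound. Pax3 (chromosome 1, 78101267 to 78197134), a dorsal neural tube factor, stood at 43.1, 30.1 and 27.4 in the BS without a single forebrain read, the BS mean being at least 12.6-fold above the forebrain floor (log2 difference 5.08 ± 0.64 (SE), adjusted p = 0.0004116). Irx2 of the Iroquois homeobox family stood at 36.8, 40.1 and 35.8 and had 1 forebrain read, for a ratio of 408 (95% exact interval 71.0 to 16339.9). Its relatives Irx5 (69.4, 74.1 and 50.5), Irx1 (34.7, 34.1 and 8.42) and Irx3 (10.5, 56.1 and 8.42) were called as well, Irx5 being detected at 15.1 in CX_1 too. Foxb1, outside the list, a forkhead factor of the caudal neural tube and mammillary region, was at 35.7, 96.2 and 29.5 with 1 forebrain read in CX_2, for a ratio of 544 (95% exact interval 95.4 to 21713). Nkx6-1 (chromosome 5, 101658139 to 101664996), a factor of ventral progenitors, was at 19.97, 12.02 and 21.0 in the BS, 5.62 in HC_1 and 0 in the other forebrain samples (log2 difference 3.84 ± 0.80 (SE), adjusted p = 0.01252). Against the HC alone, neither Nkx6-1 (log2 difference 3.28, adjusted p = 0.072) nor Irx3 (log2 difference 3.26, adjusted p = 0.07434) passed in limma. Of the 8 called members, 4 passed both thresholds against each region, as did 0.613% of all genes. En2 of the midbrain and hindbrain junction (log2 difference 3.75, adjusted p = 0.02805) and Meis1, a Hox cofactor (log2 difference 1.93, adjusted p = 0.03483), completed the called members of the list. En2 is also among the called cerebellar genes above, so that the same call enters both counts. Settings that lost a call are given in parentheses, the replicate block being a fit with the replicate number as a term. Irx5 lost its call in 1 of 25 alternative settings (in DESeq2, highest adjusted p = 0.1803). Nkx6-1 did so in 6 of 24 (without BS_1, BS_3, the OB samples or the CX samples, in edgeR, in DESeq2, highest adjusted p = 0.0899). En2 did so in 8 of 24 (without BS_1, BS_2, BS_3, the OB samples or the CX samples, in edgeR, in DESeq2, with 0.25 added, highest adjusted p = 0.106). Meis1 did so in 4 of 25 (without BS_1, BS_2 or BS_3, with the replicate block, highest adjusted p = 0.133). Irx1 and Irx3 kept theirs in the 21 and 15 settings that left them enough reads to be tested. The 19 members not tested had 64 reads in the BS and 24 in the forebrain.

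Factors of the forebrain showed the opposite pattern. Of 20 telencephalic factors tested, 9 were lower (45% against 3.35% of all genes) and none higher. For all 9, the 3 BS samples lay below all forebrain samples, as they did for 4.19% of all genes tested. All 9 were also lower past both thresholds against each region, as were 1.7% of all genes. Lhx2 (chromosome 2, 38339281 to 38369733), a LIM homeobox factor of cortex and hippocampus, fell from 1059.8 to 2222 (median 1477) to 2.10, 8.01 and 2.10, a 387-fold difference of means (log2 difference -8.43 ± 0.31 (SE), adjusted p = 1.297e-09). Nr2e1, the nuclear receptor of forebrain stem cells also named Tlx, was at 5.26, 0 and 6.31 against 391 to 1060.4 (median 580.4) (log2 difference -7.45 ± 0.51 (SE), adjusted p = 1.333e-06). Emx2, a homeobox factor of the dorsal telencephalon, had 1 BS read, for a ratio of 633 (95% exact interval 114 to 25010.3).

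Fezf2 and Dmrta2, which act in cortical projection neurons and the dorsal midline, were each at 0 in the BS. They stood at 26.1 to 367 and 24.98 to 56.7 in the forebrain, with means at least 34.0- and 7.39-fold above the BS floor. Emx2os, the antisense RNA beside Emx2, had no BS read either, at 10.9 to 244 in the forebrain, and reads of the pair cannot be told apart where counting ignores strand. Otx1 and Pax6 were reduced rather than absent, from 91.2 to 246 (median 149.7) to 7.36, 42.1 and 18.9 and from 151 to 375 (median 226) to 62.0, 112 and 63.1 (log2 difference -1.61, adjusted p = 0.003372). The list's median log2 difference was -2.74, and -2.18 with the 7 genes that lacked BS reads at their bound. Those 7 had passed the filter through the forebrain alone, so that the count of lower genes in this list is a description as well. The 9 called genes stayed called whichever sample was left out. The 11 that did not pass included genes found mainly in 1 forebrain region, such as Dmrt3, a factor of the caudal cortex, at 65.6, 44.8 and 46.6 in the HC, 2.51 and 3.07 in both CX samples and 0 elsewhere. In the forebrain, Emx2 was lower in the OB (41.3, 67.1 and 85.1) than in the CX (492 and 524), and the BS lay below both.

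**Figure D3:**
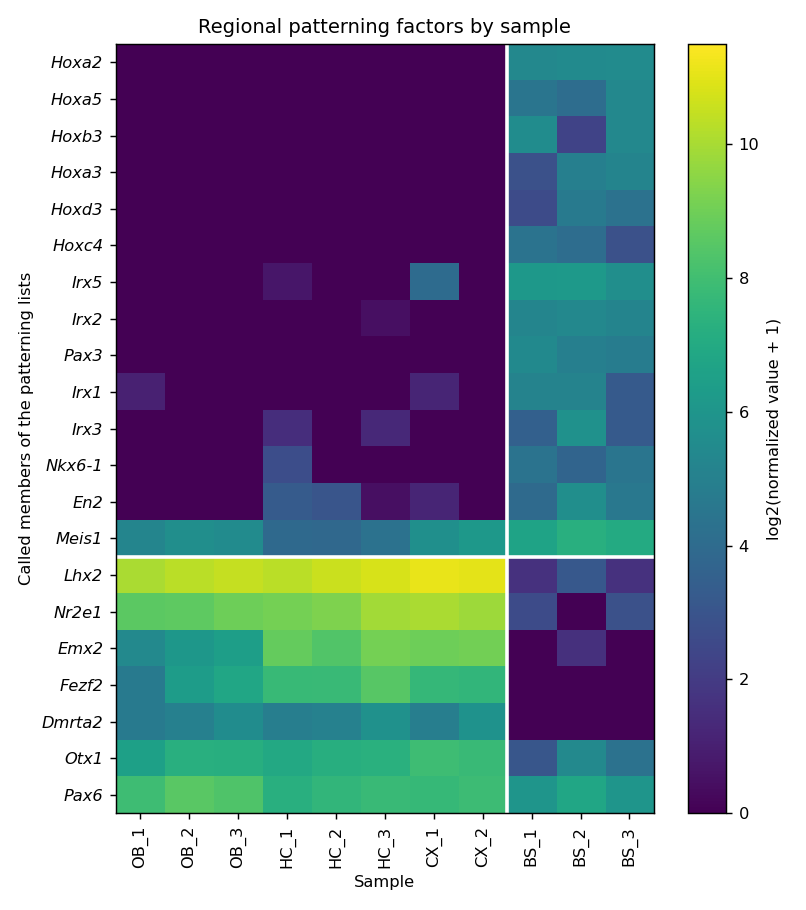
Heatmap of log2(normalized value + 1) for called members of the Hox, hindbrain and telencephalic lists (rows) in each sample (columns), with white lines between the groups. The upper block is dark in the 8 forebrain samples apart from Meis1 and scattered low values and lit in the 3 BS samples, and the lower block shows the reverse, with Otx1 and Pax6 only partly reduced in the BS.

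Because these factors bind DNA, the 250 bases before the annotated start of each gene were searched in the RefSeq promoter table (GRCm38.p6) for letters of 3 motifs on both strands: TAATTA, a core bound by many homeodomain proteins, TGATTNAT, a site of HOX with PBX proteins, and the palindrome bound by the NFI proteins. TAATTA and its complement are the same letters, and a TGATTNAT match can share bases with a TAATTA match. A promoter was matched by symbol for 10507 of the 13875 genes tested, 201 of the 272 higher genes and 342 of the 465 lower genes. TAATTA was present for 3.1% of all genes tested, 3.98% of the higher and 5.26% of the lower ones, and TGATTNAT for 1.7%, 1.49% and 4.09%, the latter being 14 genes. The NFI palindrome was found for 4 genes in all and for none of those called. A match is a description and not a bound site. Hoxa2 is shown as the most even BS marker, and Phgdh and Psat1 as consecutive enzymes of serine synthesis that both fell in the BS, all chosen after their values were seen, since TGATTNAT or its complement (capitals) occurred once in each sequence shown. For Psat1 the table held 2 promoters, of which the other had no match to any of the 3 motifs, and a gene with several promoters was counted above when any of them matched.
Hoxa2, chr6:52164832-52165081, minus strand: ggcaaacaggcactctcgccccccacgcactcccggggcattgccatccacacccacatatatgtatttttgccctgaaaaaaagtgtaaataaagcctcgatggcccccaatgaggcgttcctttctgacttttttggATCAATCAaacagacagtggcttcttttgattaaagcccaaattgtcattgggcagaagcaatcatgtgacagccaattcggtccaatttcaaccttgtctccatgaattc
Phgdh, chr3:98339970-98340219, minus strand: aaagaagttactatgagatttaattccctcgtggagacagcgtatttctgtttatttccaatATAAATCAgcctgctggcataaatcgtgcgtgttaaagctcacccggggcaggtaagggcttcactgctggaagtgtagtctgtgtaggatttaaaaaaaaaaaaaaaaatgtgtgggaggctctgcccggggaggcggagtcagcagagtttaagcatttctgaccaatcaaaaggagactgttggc
Psat1, chr19:15925060-15925309, minus strand: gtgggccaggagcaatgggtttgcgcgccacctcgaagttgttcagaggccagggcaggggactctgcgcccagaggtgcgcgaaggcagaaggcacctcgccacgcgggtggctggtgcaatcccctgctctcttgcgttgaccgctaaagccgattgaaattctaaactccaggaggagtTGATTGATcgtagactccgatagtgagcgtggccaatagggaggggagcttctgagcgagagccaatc

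Transcription factors common to astrocytes were mostly not called. Of 36 glial transcription factors, 3 were lower (8.33% against 3.35% of all genes, 5 without OB_1, 6 without HC_1, 7 without BS_2) and none higher. Id4, an inhibitor of neuronal bHLH factors, was at 178, 240.4 and 196 in the BS and 550.2 to 980.0 (median 774) in the forebrain (log2 difference -1.88 ± 0.21 (SE), adjusted p = 0.0001518). Sox21, a SoxB factor, was at 72.5, 152 and 98.9 against 227 to 808 (median 450.4) (log2 difference -2.10 ± 0.33 (SE), adjusted p = 0.001819). Hes5, a Notch effector, was at 1.05, 28.0 and 29.5 against 67.6 to 173 (median 125) (log2 difference -3.37 ± 0.64 (SE), adjusted p = 0.007298), nearly without reads in BS_1. Sox9 (1311, 1823 and 1429 against 1199 to 2695, adjusted p = 0.4544) and Nfia (3254, 5916 and 4454 against 3966 to 7319, adjusted p = 0.4758), which drive astrocyte formation, overlapped between the groups. The 5 Zic factors did not pass the test in limma, edgeR or DESeq2, and 0 had an unadjusted p under 0.05 in limma. The BS lay nearer the OB than the HC or CX for Zic1 at 443, 176 and 286 in the BS, 286, 249 and 393 in the OB, 158, 77.6 and 112 in the HC, with 62.8 and 81.3 in both CX samples.

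Genes that handle glycine and serine differed in both directions. Of 21 genes tested, 4 were higher (19% against 1.96% of all genes) and 5 lower (23.8% against 3.35%), with a list median of -0.40. Dao, Glra1 and Slc6a5 had few forebrain reads and passed the filter through the BS alone, so that the count of higher genes is a description. Dao (chromosome 5, 114003703 to 114025682), the D-amino acid oxidase that breaks down D-serine, showed the largest log2 rise of all genes called. It stood at 222, 242 and 413 in the BS, at 3.26, 7.11 and 1.62 in the OB and at 0 in every HC and CX sample (log2 difference 7.33 ± 0.76 (SE), adjusted p = 8.21e-05). Gldc (chromosome 19, 30098447 to 30175429), the glycine decarboxylase of the mitochondrial glycine cleavage system, went the other way, from 680.2 to 1313 (median 1029) to 36.8, 62.1 and 37.9, a 22.0-fold difference (log2 difference -4.45 ± 0.21 (SE), adjusted p = 1.5e-08). No BS sample came within 10-fold of the lowest forebrain sample for Gldc.

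All 3 enzymes of serine synthesis from a glycolytic intermediate were lower. Phgdh, the first enzyme, was at 182, 365 and 389 in the BS and 603 to 1132 (median 823) in the forebrain (log2 difference -1.46 ± 0.26 (SE), adjusted p = 0.004262). Psat1, the second, was at 503, 881 and 648 against 866 to 2182 (median 1494) (log2 difference -1.19 ± 0.25 (SE), adjusted p = 0.01494). Psph, the last, was at 81.0, 150.3 and 124 against 220.4 to 343 (median 263) (log2 difference -1.25 ± 0.20 (SE), adjusted p = 0.002055). For Phgdh and Psph the groups did not overlap, whereas BS_2 slightly exceeded HC_1 for Psat1. Slc7a10, the astrocytic exchanger that carries serine across the membrane, was higher, at 369, 675 and 469 against 229 to 329 (median 303) (log2 difference 0.73 ± 0.18 (SE), adjusted p = 0.03133).

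Of the genes for glycinergic transmission, Glra1, the adult glycine receptor subunit, stood at 33.6, 26.0 and 35.8 in the BS and 0 to 2.15 in the forebrain (log2 difference 4.58 ± 0.68 (SE), adjusted p = 0.001234). Slc6a5, the glycine transporter of glycinergic nerve endings, was at 17.9, 18.0 and 14.7 against 0 to 1.62 (log2 difference 3.86 ± 0.70 (SE), adjusted p = 0.005371). Both are known from neurons of the brainstem. Slc6a5 is itself one of the brainstem neuron markers summed above, so that their higher sum is no separate evidence for it. The part of these neurons in the values of both genes was not tested. Glrb, the receptor's beta subunit, was lower at 332, 555 and 530.4 against 724 to 1263 (median 1055) (log2 difference -1.15 ± 0.19 (SE), adjusted p = 0.003288). Slc7a10 lost its call in 6 of 25 alternative settings (without OB_2, CX_1, BS_2, BS_3, the OB samples or the CX samples, highest adjusted p = 0.1152). Psat1 did so in 2 of 25 (without BS_1 or BS_3, highest adjusted p = 0.1092), whereas Dao, Gldc, Phgdh, Psph and Glrb kept theirs in all 25, and Glra1 and Slc6a5 in the 24 that left them enough reads to be tested.

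Some genes of glutamate uptake were lower. Of 17 genes of uptake and the glutamine cycle, 3 were lower (17.6% against 3.35% of all genes) and 2 higher (11.8% against 1.96%), the latter becoming 0 without BS_1, 1 without OB_2, CX_1 or BS_3, 4 without BS_2 and 5 without HC_1, with a list median of -0.48. Slc1a3 (chromosome 15, 8634124 to 8710764), which encodes the glutamate transporter GLAST, was at 1953, 6315 and 5142 in the BS and 14218 to 33551 (median 25674) in the forebrain, a 5.72-fold difference (log2 difference -2.64 ± 0.34 (SE), adjusted p = 0.0004791). Slc1a2, which encodes the transporter GLT-1, overlapped between the groups at 61764, 208927 and 113316 against 162749 to 541892 (median 306436) (log2 difference -1.35, adjusted p = 0.2548). Glul, the glutamine synthetase, was at 9829.7, 18703 and 16055 against 25508 to 48329.8 (median 43378) (log2 difference -1.46 ± 0.29 (SE), adjusted p = 0.009987), and Slc7a11, the cystine and glutamate exchanger, at 635, 1290.2 and 714 against 1580.5 to 2941 (median 2292) (log2 difference -1.37 ± 0.23 (SE), adjusted p = 0.003374). For these 3 called genes every BS sample lay below every forebrain sample. The summed astrocyte markers given above, to which Slc1a3 and Glul belong, fell in BS_1 and BS_3 too, and their part in this result was not tested.

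The 2 genes that rose were Slc38a1, a glutamine transporter, at 834, 777 and 970.3 against 173 to 675 (median 353) (log2 difference 1.42, adjusted p = 0.0287), and Got1, the cytosolic aspartate aminotransferase, at 782, 387 and 375 against 186 to 337 (median 262) (log2 difference 0.93, adjusted p = 0.03164). Glul lost its call in 2 of 25 alternative settings (without BS_1 or the OB samples, highest adjusted p = 0.06148). Slc38a1 did so in 5 of 25 (without BS_1, BS_2 or BS_3, in edgeR, with the replicate block, highest adjusted p = 0.1332). Got1 did so in 6 of 25 (without OB_2, CX_1, CX_2, BS_1, the OB samples or the CX samples, highest adjusted p = 0.2016). No gene of 10 for GABA transport and metabolism passed the test in limma, edgeR or DESeq2 (1 had an unadjusted p under 0.05), whereas 1 was lower without BS_2, and of 15 GABA receptor subunits only Gabra6 did (above).

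Glutamate receptors changed by subunit. Gria4 (chromosome 9, 4417896 to 4796234), an AMPA receptor subunit with fast kinetics, was at 1202, 3093 and 2326 in the BS, 759, 622 and 629 in the OB, 74.96, 133 and 92.5 in the HC, with 211 and 58.3 in both CX samples (log2 difference 3.30 ± 0.75 (SE), adjusted p = 0.02013). Gria2, the subunit that makes AMPA receptors impermeable to calcium, was at 329, 539 and 396 against 877 to 2943 (median 1253) (log2 difference -1.84 ± 0.36 (SE), adjusted p = 0.008576). The BS thus lay above all forebrain samples for one subunit and below them for the other, and passed the thresholds against each region for both. Among 15 NMDA, delta and kainate subunits, 3 were lower (20% against 3.35% of all genes) and 1 higher (6.67% against 1.96%). The higher one stayed called only when the sample left out was HC_1 or CX_2. Grin2c was at 223, 258 and 295 against 497 to 909 (median 689) (log2 difference -1.36 ± 0.20 (SE), adjusted p = 0.001196), Grin2b at 53.6, 18.0 and 27.4 against 92.5 to 374 (median 179) (log2 difference -2.48, adjusted p = 0.003713), both being NMDA receptor subunits. Grm3, which encodes the metabotropic receptor of adult astrocytes mGluR3, was at 216, 693 and 587 against 1225 to 5847 (median 2475) (log2 difference -2.53 ± 0.47 (SE), adjusted p = 0.006335), while within the forebrain it was highest in the CX. Gria4 lost its call in 4 of 25 alternative settings (without BS_1, BS_2, BS_3 or the CX samples, highest adjusted p = 0.0996). Gria2 did so in 2 of 25 (without BS_1 or BS_3, highest adjusted p = 0.06433). Grm3 did so in 1 of 25 (without BS_1, highest adjusted p = 0.05752).

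**Figure D4:**
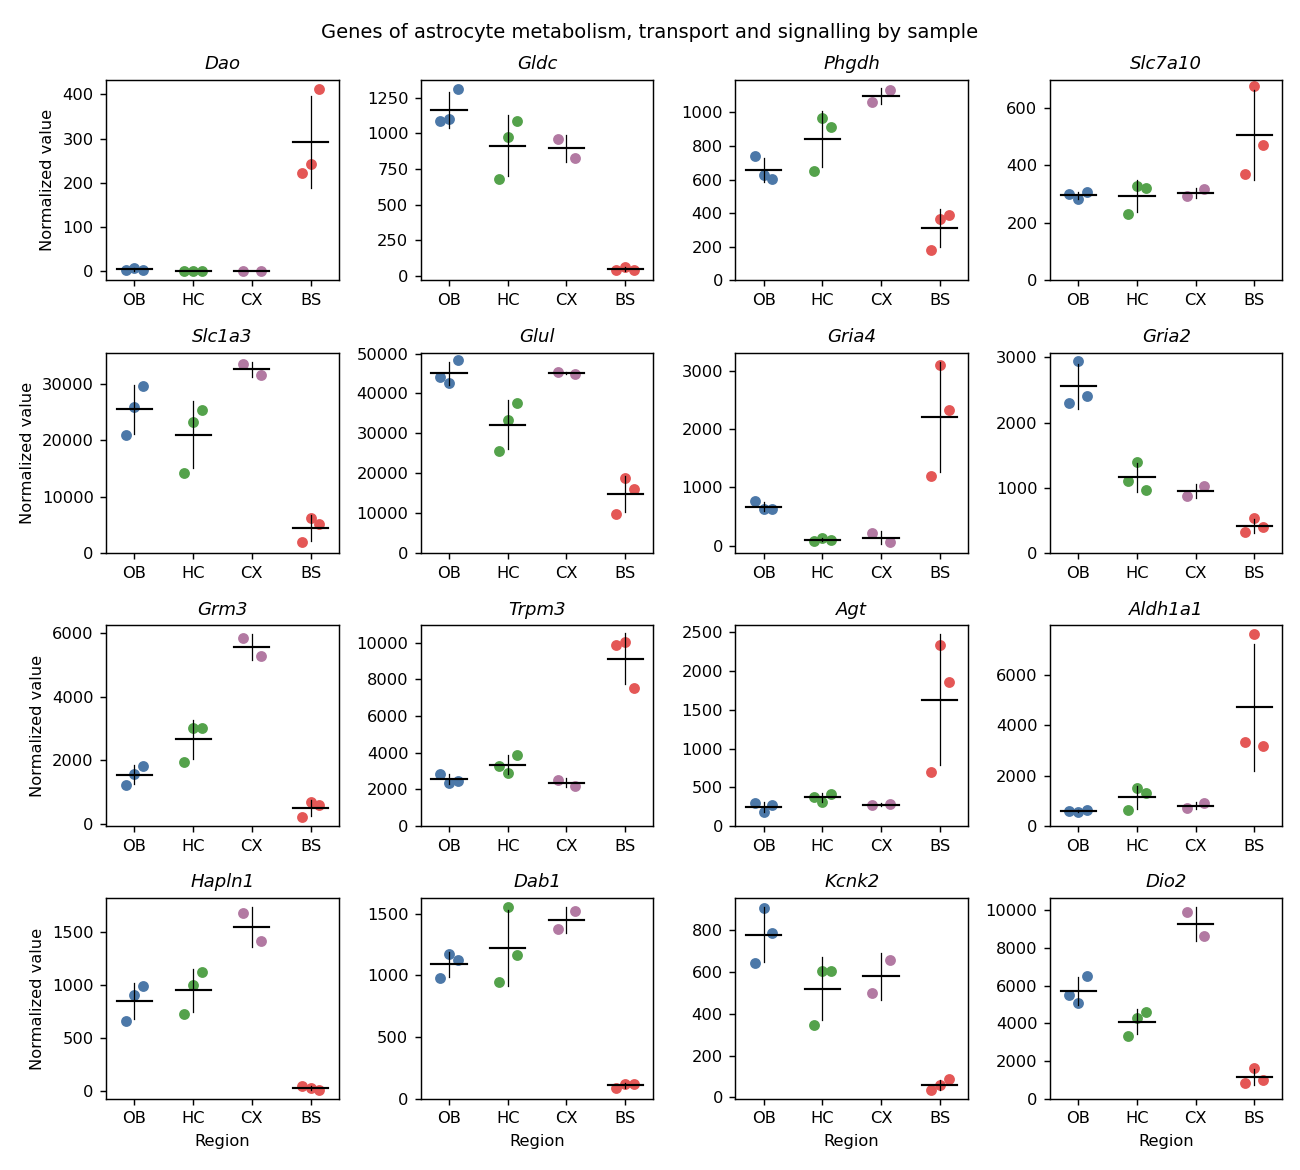
Normalized values (vertical, linear scale) of 16 genes by region (horizontal), each point being 1 sample, with bars for the region mean and thin lines for ± 1 SD (n = 3, and n = 2 for CX). Dao, Gria4, Trpm3, Agt and Aldh1a1 are highest in the 3 BS samples and Slc7a10 is modestly so, whereas the other 10 genes are lowest there.

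Genes in the list of the brain's extracellular matrix were called in 1 direction. That list also holds Dab1, Lrp8 and Chst11, which do not encode matrix proteins. Of 24 genes tested, 7 were lower (29.2% against 3.35% of all genes) and none higher, and 5 to 8 were lower when a sample was left out. Hapln1 (chromosome 13, 89539796 to 89611652), the link protein that binds hyaluronan to proteoglycans, was at 41.0, 30.1 and 10.5 in the BS and 660.2 to 1681 (median 996) in the forebrain, 39.1-fold apart (log2 difference -5.37 ± 0.35 (SE), adjusted p = 7.594e-07). Dab1 (chromosome 4, 103619359 to 104744844), the intracellular adaptor of reelin receptors, was at 86.2, 120.2 and 118 against 949 to 1553 (median 1169.6) (log2 difference -3.49 ± 0.18 (SE), adjusted p = 4.821e-08). Tnc, tenascin C, was at 3.15, 6.01 and 27.4 against 92.3 to 160.3 (median 114) (log2 difference -3.66 ± 0.45 (SE), adjusted p = 0.000302). None of these overlapped, and each passed the thresholds against every region. Cspg5, the proteoglycan neuroglycan C, was at 98.8, 278 and 181 against 823 to 2504 (median 1279.6) (log2 difference -2.96 ± 0.37 (SE), adjusted p = 0.0003495), and Lrp8, a reelin receptor, at 388, 435 and 354 against 553 to 1039 (median 816) (log2 difference -1.04, adjusted p = 0.006067). Ncan, neurocan, was high in the OB and CX and lower in the HC, where HC_1 at 5932 lay below BS_2 at 8169.7 (log2 difference -1.89, adjusted p = 0.02752). The list's median log2 difference was -0.21, so that most members did not follow. Chst2, a sulfotransferase outside the list and chosen after its values were seen, was at 339, 587 and 627 against 3562 to 8847 (median 5731) (log2 difference -3.50 ± 0.26 (SE), adjusted p = 2.728e-06). Ncan lost its call in 4 of 25 alternative settings (without BS_1, BS_3, the OB samples or the CX samples, highest adjusted p = 0.1737). Chst11 did so in 3 of 25 (without BS_1, BS_3 or the OB samples, highest adjusted p = 0.1468), Chst11 being the chondroitin sulfotransferase that completed the 7.

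Of 75 cadherins and protocadherins, 7 were lower (9.33% against 3.35% of all genes, with 4 without BS_1 and 12 without BS_2) and 1 was higher (1.33% against 1.96%), with a median of -0.59. Cdh4 was at 5.26, 6.01 and 35.8 in the BS, 798, 837 and 858 in the OB, 112, 114 and 95.8 in the HC, with 265 and 193 in both CX samples (log2 difference -4.58 ± 0.77 (SE), adjusted p = 0.003372). Pcdh20 was at 3.15, 24.04 and 4.21 against 77.6 to 310.3 (median 120.3) (log2 difference -3.98, adjusted p = 0.0004548), and Pcdhgc5, of the clustered gamma protocadherins, at 92.5, 106 and 82.1 against 201 to 682 (median 349) (log2 difference -1.97, adjusted p = 0.0009045). Cdh20 was the exception, at 669.7, 1118 and 802 against 244 to 516 (median 343) (log2 difference 1.27, adjusted p = 0.009508). The clustered protocadherins share exons, and counting could divide their reads differently.

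Of 69 axon guidance genes, 6 were lower (8.7%), or 3 without BS_1 or BS_3, and 1 higher (1.45%). The ephrin receptor Epha5 was at 33.6, 114 and 75.8 against 245 to 1172 (median 363) (log2 difference -2.78 ± 0.46 (SE), adjusted p = 0.002964) and the semaphorin receptor Plxnc1 at 33.6, 134 and 33.7 against 171 to 579 (median 310.2) (log2 difference -2.57, adjusted p = 0.002274). Slit2, a repulsive ligand of the ventral midline, was higher at 1121, 435 and 579 against 18.4 to 310.0 (median 53.2) (log2 difference 3.29, adjusted p = 0.03861), with the HC between at 247, 216 and 310.0. Slit2 lost its call in 14 of 25 alternative settings (without OB_1, OB_2, OB_3, CX_1, CX_2, BS_1, BS_2, BS_3, the OB samples or the CX samples, in edgeR, in DESeq2, with no filter on low reads, with the replicate block, highest adjusted p = 0.1969). The teneurins, adhesion proteins outside the lists and chosen after their values were seen, divided, with Tenm3 at 330.1, 497 and 368 against 1254 to 2018 (median 1706) (log2 difference -2.08 ± 0.17 (SE), adjusted p = 8.864e-06) and Tenm4 at 733, 635 and 819 against 99.7 to 394 (median 149) (log2 difference 1.96, adjusted p = 0.01344). Tenm4 lost its call in 2 of 25 alternative settings (without BS_1 or BS_3, highest adjusted p = 0.08007).

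Secreted factors that act on synapses included a gene among the 12 largest log2 falls of all genes called. Chrdl1 (chromosome X, 143285674 to 143394262), a BMP antagonist that matures AMPA receptor composition at cortical synapses, was at 5.26, 4.01 and 6.31 in the BS, 2879, 2719 and 3111 in the OB, 262, 406 and 346 in the HC, with 2618 and 2277 in both CX samples (log2 difference -7.66 ± 0.77 (SE), adjusted p = 6.557e-05). It thus varied within the forebrain, and the HC still lay far above the BS (log2 difference -5.77, adjusted p = 2.492e-10). Of 24 genes, 3 were lower (12.5% against 3.35% of all genes, 6 without HC_1, 8 without BS_2). In this list 2 were higher (8.33% against 1.96%, 1 without BS_1 or BS_2, none without BS_3). The lower ones included Pcdhgc5, a clustered protocadherin and not a secreted factor, which is also counted with the cadherins above. Sparc, a matricellular protein that opposes synapse formation, was higher at 12189, 44108 and 25787 against 4636 to 9424 (median 8024) (log2 difference 1.70 ± 0.33 (SE), adjusted p = 0.008627). Lgi1, a secreted ligand of synaptic ADAM proteins, was higher at 1443, 2057 and 1450.2 against 171 to 767 (median 567.97) (log2 difference 1.91 ± 0.42 (SE), adjusted p = 0.01734). Sparc lost its call in 1 of 25 alternative settings (without BS_3, highest adjusted p = 0.05597). Lgi1 did so in 3 of 25 (without BS_1, BS_2 or BS_3, highest adjusted p = 0.07075). The phagocytic receptor Mertk and the bridging protein Mfge8 were both lower, at 219.7, 351 and 347 against 794 to 2342 (median 1378) (log2 difference -2.15 ± 0.32 (SE), adjusted p = 0.00114) and at 188, 292 and 286 against 850.3 to 3336 (median 1476) (log2 difference -2.64 ± 0.37 (SE), adjusted p = 0.0008445). Of 18 phagocytosis genes tested, these 2 were called (11.1% lower against 3.35% of all genes), and 4 were lower without HC_1 or without BS_2.

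Genes of ion channels and ion transport that were called were mostly lower. Of 65 potassium channel genes, 5 were lower (7.69% against 3.35% of all genes, 8 without HC_1, 3 without BS_1 or BS_3). Among these, 3 had no BS read and passed the filter through the forebrain alone, so that this count is a description. In the same list 1 was higher (1.54% against 1.96%, 0 without BS_2 or BS_3). Kcnk2 (chromosome 1, 189207930 to 189402273), which encodes the background potassium channel TREK-1, was at 37.8, 60.1 and 86.3 in the BS and 345 to 906 (median 626) in the forebrain (log2 difference -3.37 ± 0.28 (SE), adjusted p = 8.864e-06). Kcnh3 and Kcnf1 had no BS read, with forebrain values of 13.7 to 127 and 9.199 to 92.4 and forebrain means at least 8.84- and 7.32-fold above the BS floor. Of 27 genes for the sodium pump, bicarbonate and chloride transport, 1 was lower (3.7% against 3.35% of all genes, 2 without HC_1) and none higher. Of 22 aquaporin and endfoot genes, 2 were lower (9.09% against 3.35%, 4 without BS_2, 1 without CX_2, BS_1 or BS_3) and none higher.

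Trpm3 (chromosome 19, 22139046 to 22995410), a calcium-permeable channel opened by neurosteroids, was higher, at 9849, 10005 and 7518 in the BS and 2203 to 3892 (median 2693) in the forebrain, 3.26-fold apart (log2 difference 1.72 ± 0.19 (SE), adjusted p = 0.000115). The gene is known from the choroid plexus as well. In the HC samples, whose choroid plexus sums lay in the range of the BS, Trpm3 stood at 3268, 2863 and 3892, below every BS sample, and within the BS it was highest in BS_2. The part of choroid plexus cells in these values was not tested.

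Retinoid and thyroid hormone genes moved on both sides. Of 26 tested, 3 were higher and 2 lower, or 1 lower without BS_1, BS_2 or BS_3. Cyp26b1 (chromosome 6, 84571414 to 84593908), which degrades retinoic acid, was at 437, 1316 and 783 in the BS, 0, 0 and 2.15 in the OB, 97.4, 11.9 and 18.7 in the HC, with 3.77 and 9.199 in both CX samples (log2 difference 6.85 ± 1.14 (SE), adjusted p = 0.002946). Aldh1a1 (chromosome 19, 20492715 to 20643465), a retinaldehyde dehydrogenase that can make retinoic acid, was at 3346, 7609 and 3155 against 553 to 1493 (median 666) (log2 difference 2.44 ± 0.33 (SE), adjusted p = 0.000685). An enzyme of synthesis and an enzyme of breakdown were thus higher in the same samples, and both were highest in BS_2. Dio2 (chromosome 12, 90724552 to 90738438), the deiodinase by which astrocytes activate thyroid hormone, was at 844, 1631 and 972 against 3344 to 9898 (median 5286) (log2 difference -2.36 ± 0.30 (SE), adjusted p = 0.0004669), and Crym, which binds the hormone in the cytosol, had no BS read against 1.62 to 150.3 (median 12.8), the forebrain mean being at least 7.72-fold above the BS floor. Hr, a corepressor and classic target of the thyroid hormone receptor, was higher at 82.0, 138 and 122 against 16.4 to 61.3 (median 24.6) (log2 difference 1.97, adjusted p = 0.01165). Crym lost its call in 7 of 25 alternative settings (without BS_1, BS_2, BS_3 or the CX samples, in edgeR, with 5 added, with the replicate block, highest adjusted p = 0.1056). Hr did so in 1 of 25 (without BS_3, highest adjusted p = 0.07093).

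Among 30 peptide ligands and receptors, Agt was called higher (3.33% against 1.96% of all genes) and Cck lower (3.33% against 3.35%). Agt (chromosome 8, 124556534 to 124569706), the angiotensin precursor made by astrocytes, was at 701, 2342 and 1856 in the BS and 178 to 419 (median 291) in the forebrain, 5.44-fold apart (log2 difference 2.31 ± 0.31 (SE), adjusted p = 0.0006718), and lowest in BS_1 among the BS samples. Cck, a peptide of cortical neurons, was at 7.36, 6.01 and 18.9 against 34.5 to 248 (median 91.8) (log2 difference -3.22, adjusted p = 0.001866). Of 26 monoamine and acetylcholine receptor genes, 1 was higher (3.85% against 1.96% of all genes) and 2 were lower (7.69% against 3.35%). Adra2a, an alpha-2 adrenergic receptor, was higher at 152, 222 and 199.95 against 9.199 to 93.2 (median 35.9) (log2 difference 2.29, adjusted p = 0.02696). Chrm1, a muscarinic acetylcholine receptor, was lower at 0, 0 and 16.8 against 5.50 to 46.6 (median 30.0) (log2 difference -3.30, adjusted p = 0.03739). Htr6, a serotonin receptor, had no BS read against 1.10 to 38.2 in the forebrain, whose mean lay at least 2.73-fold above the BS floor (adjusted p = 0.04322). Adra2a lost its call in 4 of 25 alternative settings (without BS_1, BS_2 or BS_3, with the replicate block, highest adjusted p = 0.1149). Chrm1 did so in 14 of 25 (without OB_1, OB_2, HC_2, CX_1, CX_2, BS_1, BS_2, the OB samples or the CX samples, in edgeR, in DESeq2, with 5 added, with no filter on low reads, with the replicate block, highest adjusted p = 0.2097). Htr6 did so in 13 of 24 (without OB_1, OB_2, OB_3, CX_1, CX_2, BS_1, BS_2, BS_3 or the CX samples, in edgeR, with 5 added, with only means over 10 tested, with the replicate block, highest adjusted p = 0.1468).

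Developmental signalling pathways were called in no common direction. Of 45 Wnt genes, 4 were higher (8.89% against 1.96% of all genes, 2 without BS_2 or BS_3). Among these, Ror2 and Wnt8b had few forebrain reads and passed the filter through the BS alone, so that this count is a description. In that list 2 were lower (4.44% against 3.35%, 5 without HC_1, 1 without BS_1). The receptor Ror2 was at 17.9, 38.1 and 16.8 against 0 to 1.58 (log2 difference 4.03, adjusted p = 0.003735), the ligand Wnt8b at 7.36, 80.1 and 27.4 against 0 to 3.30 (log2 difference 4.21, adjusted p = 0.01016), the antagonist Sfrp5 at 93.6, 274 and 79.98 against 4.57 to 44.2 (median 14.7) (log2 difference 3.14, adjusted p = 0.009436), and the antagonist Dkk3 at 104, 108 and 54.7 against 739 to 4166 (median 1696) (log2 difference -4.28 ± 0.50 (SE), adjusted p = 0.000206). Of 29 FGF genes, 3 were lower (10.3% against 3.35% of all genes, 5 without BS_2, 1 without BS_3) and none higher. They were led by the intracellular factor Fgf13 at 31.5, 18.0 and 31.6 against 109.7 to 412 (median 206) (log2 difference -3.02 ± 0.35 (SE), adjusted p = 0.000206). Of 40 BMP and TGF-beta genes, 2 were lower (5% against 3.35% of all genes, 5 without BS_2) and none higher. These were Chrdl1 and Ltbp1, which holds latent TGF-beta in the matrix, the latter at 117, 124 and 130.5 against 276 to 899 (median 546) (log2 difference -2.05, adjusted p = 0.001771). None of 11 Sonic hedgehog genes passed the test in limma, where 4 had an unadjusted p under 0.05, or in edgeR, and 3 did in DESeq2, with Ptch1, the receptor and target of the pathway, at 1589.6, 3999 and 2244 against 1170.0 to 1989 (median 1522) (log2 difference 0.66, adjusted p = 0.1128). Of 26 Notch genes, 1 was higher (3.85% against 1.96% of all genes) and 2 were lower (7.69% against 3.35%). Dlk1, a noncanonical ligand, was higher at 82.0, 112 and 58.9 against 3.67 to 22.8 (median 8.95) (log2 difference 3.09, adjusted p = 0.007035), and Hes5 and the coactivator Maml2 were lower. Maml2 lost its call in 4 of 25 alternative settings (without BS_1, BS_3, the OB samples or the CX samples, highest adjusted p = 0.1554).

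A few genes of energy metabolism were higher. Of 34 genes of glycolysis, lactate and glycogen, 4 were higher (11.8%) and 1 lower (2.94%), with a median of 0.13. Pfkp, a phosphofructokinase, was at 897, 739 and 684 against 412 to 589 (median 448) (log2 difference 0.72, adjusted p = 0.01143), Pgk1, a phosphoglycerate kinase, at 1993, 1893 and 1804 against 790.2 to 1421 (median 1172) (log2 difference 0.71, adjusted p = 0.02401), and Pygm, the glycogen phosphorylase of muscle and astrocytes, at 881, 1519 and 1177 against 342 to 805 (median 548) (log2 difference 1.05, adjusted p = 0.02828). The number called higher was 1 without BS_1, without BS_2 or without BS_3. Pfkp lost its call in 2 of 25 alternative settings (without BS_1 or the OB samples, highest adjusted p = 0.08309). Pgk1 did so in 4 of 25 (without BS_1, BS_2, BS_3 or the OB samples, highest adjusted p = 0.1094). Pygm did so in 5 of 25 (without BS_2, BS_3, the HC samples or the CX samples, with the replicate block, highest adjusted p = 0.1137). Pfkfb3 did so in 7 of 25 (without HC_2, CX_2, BS_1, BS_2, BS_3, the HC samples or the CX samples, highest adjusted p = 0.1272), Pfkfb3 being the kinase that makes the activator of phosphofructokinase. Gpd1, which links glycolysis to glycerol phosphate, and Hif1a, the hypoxia factor that induces glycolytic genes, were outside the list and chosen after their values were seen. They stood at 1075, 1961 and 1313 against 189 to 595 (median 393) (adjusted p = 0.004262) and at 1726, 2789 and 1705 against 602 to 980.4 (median 676) (log2 difference 1.47 ± 0.20 (SE), adjusted p = 0.000556).

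Of 80 nuclear genes of the respiratory chain, 2 were higher (2.5%) and none lower, a share near that of all genes, with 0 to 4 higher when a sample was left out (4 without HC_1) and 0 called in edgeR. Ribosomal protein genes gave 1 call of 69 and cholesterol synthesis and lipid export 0 of 33 in limma (5 at an unadjusted p under 0.05) and edgeR and 2 of 33, both lower, in DESeq2, with list medians of -0.24 and 0.01. Among 29 metallothionein and glutathione genes, 5 were lower (17.2% against 3.35% of all genes, 2 without BS_1 or BS_3, 3 without OB_2, OB_3, HC_3 or CX_1) and 1 higher (3.45% against 1.96%). Gstm5, a glutathione transferase, was lower at 323, 653 and 349 against 1023 to 2007 (median 1212) (log2 difference -1.69 ± 0.26 (SE), adjusted p = 0.001406). Of 30 genes of fatty acid binding, synthesis and oxidation, 1 was higher (3.33%) and 3 were lower (10%), with 0 to 6 lower when a sample was left out, none without BS_1 or BS_3 and 6 without HC_1, and 0 lower in edgeR. The muscle-type fatty acid binding protein Fabp3 was higher at 385, 118 and 236 against 2.69 to 92.5 (median 9.45) (log2 difference 3.86, adjusted p = 0.0222). Those lower included Fads2, a fatty acid desaturase, at 996, 1953 and 1099 against 1650.3 to 2763 (median 2392) (log2 difference -0.81, adjusted p = 0.03861), and Ppara, a nuclear receptor for fatty acids, at 188, 268 and 166 against 273 to 520.1 (median 345) (log2 difference -0.81, adjusted p = 0.04505). Fabp3 lost its call in 3 of 25 alternative settings (without BS_1, BS_3 or the CX samples, highest adjusted p = 0.1361). Fads2 did so in 13 of 25 (without OB_1, OB_2, OB_3, HC_3, CX_1, CX_2, BS_1, BS_3, the OB samples or the CX samples, in edgeR, with no filter on low reads, with the replicate block, highest adjusted p = 0.2231). Ppara did so in 13 of 25 (without OB_1, OB_2, OB_3, HC_3, CX_1, CX_2, BS_1, BS_3, the OB samples or the CX samples, in edgeR, with no filter on low reads, with the replicate block, highest adjusted p = 0.2169). Of 33 genes of reactive astrocytes, 2 were lower (Ptx3 and S100a6, 6.06% against 3.35% of all genes). Of 21 clock genes, 2 were lower (Arntl and Hlf, 9.52% against 3.35%). Of 30 genes induced by activity or dissociation, Arc was lower (3.33% against 3.35%). Arc lost its call in 4 of 25 alternative settings (without CX_2, BS_2, BS_3 or the CX samples, highest adjusted p = 0.1044). Ptx3 did so in 3 of 23 (without BS_1, BS_3 or the CX samples, highest adjusted p = 0.05945). Hlf did so in 2 of 25 (without BS_1 or BS_3, highest adjusted p = 0.06262).

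**Figure D5:**
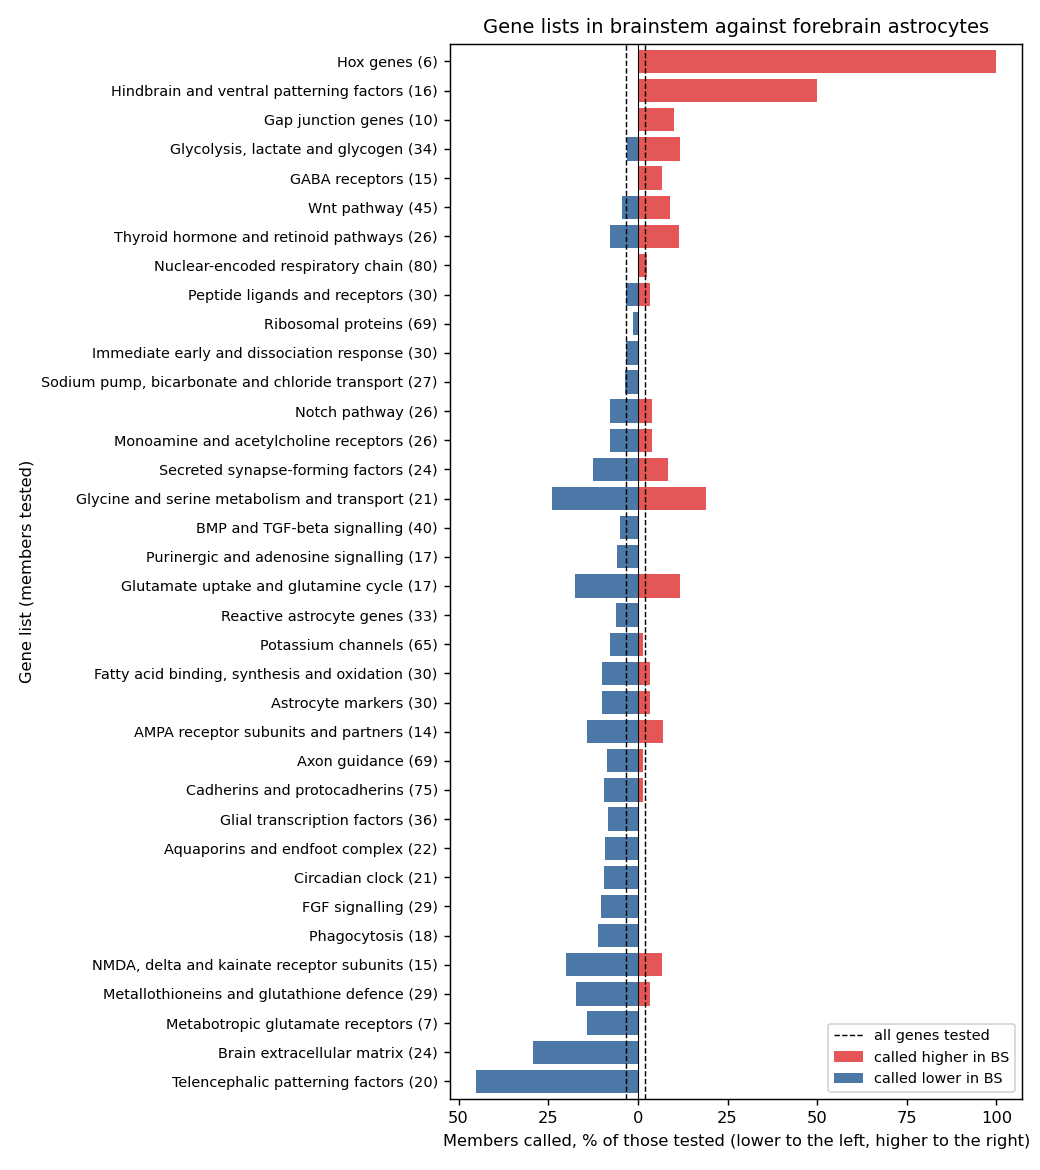
Share of tested members called higher (red, to the right) or lower (blue, to the left) in the BS for each functional gene list with a call, without the cell type lists (vertical, members tested in parentheses), in percent. Dashed lines mark the shares of all genes tested, 1.96% and 3.35%, and of the lists drawn the Hox and hindbrain lists extend farthest to the right, and the telencephalic and extracellular matrix lists farthest to the left.

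Genes with the highest values among those called, by read count and not per length, included markers of several cell types. The 8 higher genes with the largest BS means included Mbp, Sparc, Fth1, Trpm3, Atp5b, Plekhb1 and Trp53inp2, of which Fth1 encodes a ferritin chain and Atp5b a subunit of the ATP synthase. Mbp stood at 37477, 45114 and 65569 in the BS and 3846 to 29074 (median 12905) in the forebrain (log2 difference 2.02 ± 0.51 (SE), adjusted p = 0.03428), and its difference from the HC alone did not pass (log2 difference 1.16, adjusted p = 0.083). Klk6, a protease of oligodendrocytes, was low in all regions but at 61.0, 82.1 and 92.6 in the BS against 0 to 10.05 (log2 difference 5.05 ± 0.80 (SE), adjusted p = 0.002026). Mbp and Klk6 moved with the summed oligodendrocyte markers, whose part was not tested. Mbp lost its call in 11 of 25 alternative settings (without OB_1, OB_2, CX_2, BS_1, BS_2, BS_3, the OB samples or the CX samples, in edgeR, with no filter on low reads, with the replicate block, highest adjusted p = 0.1707). Fth1 did so in 16 of 25 (without OB_1, OB_2, OB_3, HC_3, CX_1, CX_2, BS_1, BS_2, BS_3, the OB samples or the CX samples, in edgeR, with TMM scaling, with 0.25 added, with no filter on low reads, with the replicate block, highest adjusted p = 0.2135). Atp5b did so in 12 of 25 (without OB_1, OB_2, OB_3, HC_3, CX_2, BS_1, BS_2, BS_3 or the OB samples, in edgeR, with no filter on low reads, with the replicate block, highest adjusted p = 0.1765). Plekhb1 did so in 11 of 25 (without OB_1, OB_2, OB_3, CX_1, CX_2, BS_2, BS_3, the OB samples or the CX samples, with no filter on low reads, with the replicate block, highest adjusted p = 0.1756). Trp53inp2 did so in 15 of 25 (without OB_1, OB_2, OB_3, HC_3, CX_2, BS_1, BS_2, BS_3, the OB samples or the HC samples, in edgeR, with TMM scaling, with no filter on low reads, with the regions weighted equally, with the replicate block, highest adjusted p = 0.1969).

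The 8 lower genes with the largest forebrain means were Glul, Gpm6b, Cpe, Cst3, Slc1a3, Ncan, Luzp2 and Gpm6a, most of which are known from astrocytes or radial glia. Cpe, which processes peptide precursors, was at 4061, 12483 and 6325 against 21889.7 to 38503 (median 30360.2) (log2 difference -2.10 ± 0.33 (SE), adjusted p = 0.001749). Cst3, the protease inhibitor cystatin C, was at 6302, 11954 and 8322 against 19521 to 33433 (median 26598) (log2 difference -1.59 ± 0.25 (SE), adjusted p = 0.002053), and Gpm6a, a membrane glycoprotein, at 2692, 5177 and 4033 against 8369 to 22658 (median 14557) (log2 difference -1.89 ± 0.30 (SE), adjusted p = 0.002101). Values were lowest in BS_1 for each of these 3. Tspan7, a tetraspanin outside the rule and chosen after its values were seen, fell further, from 8167 to 18772 (median 15205) to 1365, 2927 and 2021 (log2 difference -2.84 ± 0.27 (SE), adjusted p = 3.381e-05). Gpm6b lost its call in 6 of 25 alternative settings (without CX_2, BS_1, BS_3, the OB samples or the CX samples, with no filter on low reads, highest adjusted p = 0.1492). Luzp2 did so in 11 of 25 (without OB_1, OB_2, OB_3, CX_1, CX_2, BS_1, BS_3, the OB samples or the CX samples, in edgeR, with no filter on low reads, highest adjusted p = 0.2151), whereas Cpe, Cst3, Slc1a3, Gpm6a and Tspan7 kept theirs in all 25.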

How the data were processed

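Sorted Aldh1l1-eGFP-positive cells of 4 brain regions were profiled by RNA-Seq of 5 ng total RNA per library with ribosomal RNA depletion (Trio RNA-Seq). According to the methods and the submitters' processing notes, reads were mapped to mm10 with STAR 2.5.0a and counted on UCSC transcripts without a stated use of strand. The deposited values, a signal made by the authors by dividing each count by 1 DESeq2 (1.20.0) size factor per sample, came as 1 file per sample. All non-zero values (100% in each sample, within 0.01 read) were whole multiples of the smallest one, so that read counts were recovered.

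Genes passing edgeR's filterByExpr on these reads were fitted with limma 3.58.1 (trend) on log2(value + 1), BS against the 8 forebrain samples pooled and no covariates. Genes with a Benjamini-Hochberg adjusted p under 0.05 and a fold over 1.5 were called. BS was also set against each region, with 1 mean per region. Samples were grouped by the labels. Alternatives were edgeR 4.0.16 and DESeq2 1.42.0 on recovered reads, TMM or upper quartile scaling, other added values and filters, the call rule of the study, equally weighted regions, a replicate block, and leaving out each region or sample, 25 in all, and the fit was tested on simulated data. With equally weighted regions, each region had its own mean in the fit. The members and the 55 gene lists were chosen with earlier results of these data known.

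Genes named were the 12 largest changes in each direction among called genes with separated groups, the 8 called genes with the highest values in each direction, up to 6 called members per list by adjusted p, or the 2 members with the highest values where fewer than 2 were called, and cell type markers. Genes beyond this rule are the ones said to be chosen after their values were seen, besides Aldh1l1, Aqp4, Gfap, Slc1a2, Sox9, Nfia, Meis1, Otx1, Pax6, Psat1 and Dmrt3, list members chosen in the same way. Gene positions are GENCODE's for GRCm38, the build of mm10. Total reads per sample set the precision of low values. Replicate numbers did not pair the samples. Some genes are not reported here.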

Additional observations from a re-analysis of the deposited data

How the results depend on the processing

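Of 129 called genes named here, 84 stayed past both thresholds in all alternatives that gave a value, and none changed direction in any. The number of genes called (737, with 272 higher and 465 lower) was 1253 (552 and 701) by the call rule of the study, 1827 (940 and 887) with the 3 forebrain regions weighted equally, 1447 (759 higher) without the HC samples, 440 (148 and 292) without the CX samples, and 303 to 1075 (66 to 465 higher, 221 to 610 lower) when a sample was left out, lowest without BS_3 or BS_1. DESeq2 called 451 higher and 1093 in all, and edgeR called 572, of which 558 were among the 737. With the replicate number as a block, 554 were called, 173 of them higher. Of the genes named, Adra2a, Chrm1, Htr6, Fads2, Ppara, Meis1, Slc38a1, Pygm, Slit2, Mbp, Fth1, Atp5b, Plekhb1, Trp53inp2 and Crym lost their call with this block (adjusted p = 0.0523 to 0.08093). Same-numbered samples of different regions had correlated deviations of -0.16 to 0.25, with 3 of 15 pairs over 0.1, so the numbers were not taken to pair the samples.

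Genes called against all 3 regions separately numbered 321 in both directions, and 219 to 512 when a sample was left out, highest without BS_2. Over the functional lists, 47 members were called higher and 86 lower. These became 72 higher by the call rule of the study, 113 and 162 with equal weights, 79 and 134 without the HC samples, 31 higher without the CX samples, and 22 to 66 and 52 to 115 when a sample was left out. The causes of these changes were not tested, other than that fewer samples enter the fits that leave some out. The fit with equal weights also differs in its error, as given above. Other scalings, added values and filters kept each of these counts within 1.5 times its value here. The depth of the BS libraries limits what can be said of genes under 3 reads per sample.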

Other observations

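Slc6a9, which encodes the glycine transporter GlyT1 of astrocytes, and Meis2, a TALE homeobox factor, were singled out after their values were seen, as genes whose pattern across regions was not visible in the pooled comparison. Slc6a9 stood at 1213, 2182 and 1484 in the BS and at 1888, 1509 and 2002 in the OB, but at 111, 163 and 172 in the HC, with 158 and 189 in both CX samples. Its pooled log2 difference was 2.01 with an adjusted p of 0.2098. Against the regions separately, with the same BS samples each time, the log2 difference was -0.18, adjusted p = 0.6858 for the OB, 3.42, adjusted p = 2.838e-07 for the HC and 3.18, adjusted p = 1.78e-06 for the CX (limma). Its values in the BS overlapped those in the OB and lay above all of those in the HC and CX. Meis2 stood at 285, 280.5 and 288 in the BS and 229, 260.3 and 299.8 in the HC, with higher values of 886, 808 and 789.7 in the OB and 789 and 757 in the CX (pooled log2 difference -0.89, adjusted p = 0.2423).

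Regions differed in how often the BS departed from them. The BS passed both thresholds against the OB in 1035 genes that were higher and 1007 that were lower, against the HC in 269 and 372, and against the CX in 755 and 755, comparisons that share the BS samples and were not tested against each other. Of the 272 genes higher in the pooled comparison, 84 were called against all 3 regions, 131 against 2, 52 against 1 and 5 against none. Of the 465 lower genes these numbers were 235, 152, 73 and 5.

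Some further genes with separated groups belonged to no functional list, of which Mgll, Ucp2 and Itih3 were chosen after their values were seen. Mgll, the lipase that degrades the endocannabinoid 2-AG, was at 196, 345 and 244 in the BS and 1001 to 2097 (median 1197) in the forebrain (log2 difference -2.35 ± 0.24 (SE), adjusted p = 6.734e-05). Fam107a, from the list of Bergmann glia markers and known from outer radial glia and astrocytes, was at 1985, 3033 and 2705 against 6221 to 15279.7 (median 9691) (log2 difference -1.97 ± 0.25 (SE), adjusted p = 0.000468). Ucp2, a mitochondrial carrier, was at 1727, 1194 and 1290.2 against 178 to 755 (median 437) (log2 difference 1.89 ± 0.37 (SE), adjusted p = 0.009459). Itih3, a hyaluronan-binding matrix protein, was at 1016, 3131 and 1955 against 349 to 935 (median 649.8) (log2 difference 1.49 ± 0.32 (SE), adjusted p = 0.01401). Ucp2 lost its call in 1 of 25 alternative settings (without BS_1, highest adjusted p = 0.06858). Itih3 did so in 2 of 25 (without BS_2 or BS_3, highest adjusted p = 0.07875).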
